A study of Mus musculus with 4 samples.

Results

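The nuclei described here carry the annotation Oligodendrocytes/OPC in the cell table deposited with a single-nucleus RNA sequencing study of the mouse posterior hindbrain. They were chosen by that annotation alone, among nuclei the table marks as having passed quality control, and they numbered 123 of 39461 kept nuclei (0.312%). The table places them in 2 of its 184 clusters, with 62 nuclei in cluster 136 and 61 in cluster 138. Nuclei of the annotations OPC (784 nuclei) and Oligodendrocytes (16816 nuclei) served for comparison. The study isolated the part of the hindbrain that holds the area postrema and the nucleus of the solitary tract and asked which cells there respond to joint activation of AgRP neurons and silencing of POMC neurons. There were 4 libraries, 2 per group. Mice of the AgRP-Gq;POMC-Gi group carried AgRP-IRES-Cre+/- together with hM3DGq fl/-, so that Cre switched on an activating receptor in AgRP-expressing cells, and POMC-Dre+/- together with hM4DGi fl/-, so that Dre switched on an inhibitory receptor in POMC-expressing cells. The labels call the controls WT, and the Methods describe them as mice that carry both receptor alleles without either recombinase. Both groups received clozapine N-oxide (CNO), the ligand of the receptors, at 3 mg per kg, and tissue was taken 1 h later with no food present. The mice were adults of both sexes on a C57BL/6 background, 2 per group. The Methods say that samples of a condition were pooled, though the libraries of a group differed in choroid plexus nuclei, as given below. How mice were divided between the libraries of a group is not given in the sources used here, so p-values measure only the spread between libraries.

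Oligodendrocyte precursor cells (OPCs) divide throughout life and are known by the growth factor receptor *Pdgfra* and the proteoglycan *Cspg4*. On leaving that state they pass through a short-lived committed stage, known for the receptor *Gpr17*, and then become newly formed oligodendrocytes, known for the choline phosphodiesterase *Enpp6* and the cytoskeletal protein *Bcas1*, before they switch on the myelin genes in full. *Enpp6*, *Bcas1* and *Gpr17* were therefore the genes by which the annotation was checked.

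The promoters of a pair of genes that mark the nuclei of cluster 136 are printed because these genes bear most directly on the name: *Enpp6* is a standard marker of newly formed oligodendrocytes, and *9630013A20Rik*, a long non-coding RNA gene of the same list, stood furthest above every other annotation. Each run is the 250 bases before the gene's start in RefSeq (GRCm38.p6), 5′ to 3′ on the strand of the gene, chr8:46986637-46986886 on the plus strand for *Enpp6* and chr14:84476425-84476674 on the minus strand for *9630013A20Rik*. Capitals mark ACAAT, the core letters of sites bound by SOX factors such as Sox10.
Enpp6: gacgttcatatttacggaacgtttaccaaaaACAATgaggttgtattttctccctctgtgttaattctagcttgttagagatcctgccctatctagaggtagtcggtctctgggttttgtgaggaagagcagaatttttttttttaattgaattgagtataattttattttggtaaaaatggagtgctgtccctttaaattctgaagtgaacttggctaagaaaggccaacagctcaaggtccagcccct
9630013A20Rik: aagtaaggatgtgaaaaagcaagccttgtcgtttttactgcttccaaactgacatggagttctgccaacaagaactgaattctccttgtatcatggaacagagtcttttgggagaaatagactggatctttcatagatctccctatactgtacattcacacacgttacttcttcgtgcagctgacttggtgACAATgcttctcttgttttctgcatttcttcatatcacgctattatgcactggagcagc
ACAAT or its reverse complement ATTGT stood in 9086 of 32851 such RefSeq windows (27.7%) and in 6 of the 14 windows of the 12 genes of the committed and newly formed list that had one (*9630013A20Rik*, *Enpp6*, *Mycl*, *Neu4*, *Tcf7l2* and *Tns3*). The letters CTTTGA or TCAAAG, the core of TCF/LEF sites, stood in the windows of *Fyn* and *Neu4*, 2 of the 14, against 13.8% of all windows. CTGGNAC or GTNCCAG, a motif of the myelin regulator Myrf, stood in the windows of *Bmp4* and *Cnksr3*, again 2 of the 14, against 16.1% of all windows. These matches describe letters in the windows and name no bound site.

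The nuclei were few and were unevenly spread over the libraries. Control replicate 1 held 16 of them, control replicate 2 held 36, AgRP-Gq;POMC-Gi replicate 1 held 52 and replicate 2 held 19, which was 0.165%, 0.358%, 0.535% and 0.191% of the nuclei of each library. Together they held 484631 unique molecular identifiers (UMIs, one per captured RNA molecule), between 69378 and 173199 per library. Cluster 136 was present in every library, with 16, 9, 20 and 17 nuclei in the same order, a median of 3892 UMIs per nucleus and a median mitochondrial share of 0.212%. Cluster 138 had 0, 27, 32 and 2 nuclei, with a median of 2856 UMIs and a median mitochondrial share of 0.434%. The 0 nuclei of control replicate 1 allow a share of up to 0.0308% of that library. Among the 159 clusters with at least 50 nuclei, cluster 138 was 1 of 3 that lacked a library altogether. Across all kept nuclei, 168 barcodes occurred in more than 1 library, 2 nuclei of the annotation carried such a barcode, and 0 barcodes occurred more than once within the annotation.

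**Figure D1:**
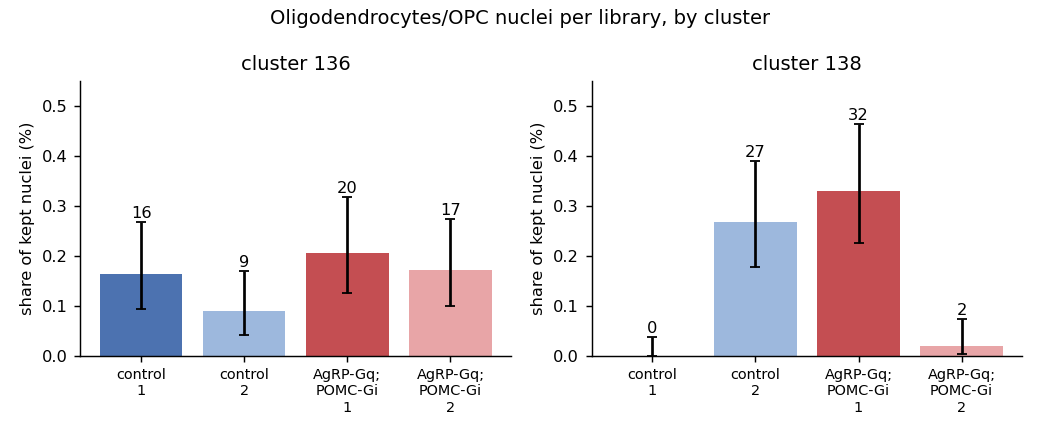
Share of the kept nuclei of each library (vertical axis, %) that belong to cluster 136 or cluster 138, drawn as bars with exact 95% intervals for counting error and the number of nuclei written above. Cluster 136 lies between 0.0895% and 0.206% in the 4 libraries, whereas cluster 138 is at 0 in control replicate 1 and at 0.329% in AgRP-Gq;POMC-Gi replicate 1.

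By *Enpp6*, *Bcas1* and *Gpr17*, the name of the annotation fitted cluster 136 and not cluster 138. Levels are given as CPM, the UMIs of a gene summed over the nuclei of a cluster or annotation in a library and divided by all their UMIs, scaled to 1e6 UMIs, and as mean ± SD over the libraries (n = 4 for cluster 136, OPC and Oligodendrocytes). Because clusters were built on expression, differences between clusters and annotations are a description and carry no test.

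*Enpp6* (chr8:46986887-47096762, plus strand, GRCm38) was at 850.4 and 308 CPM in the control libraries and at 427 and 1017 CPM in the AgRP-Gq;POMC-Gi libraries of cluster 136. Its mean there was 651 ± 337 CPM, against 2.80 ± 1.00 in OPC and 152 ± 18.0 in Oligodendrocytes. Every library of cluster 136 was above every library of the other 2 annotations. *Bcas1* (chr2:170346991-170427845, minus strand) was at 4252, 4232, 3937 and 2597 CPM, a mean of 3755 ± 785, against 475 ± 67.6 in OPC and 709.6 ± 64.8 in Oligodendrocytes. *Gpr17* (chr18:31942997-31949636, minus strand), which lies inside *Lims2* on the opposite strand, was at 562, 410.4, 587 and 263 CPM, a mean of 456 ± 150, against 135 ± 14.8 in OPC and 1.13 ± 0.221 in Oligodendrocytes. The order of the levels thus differed between the markers: *Gpr17* was lowest in Oligodendrocytes, *Enpp6* was lowest in OPC, and both, with *Bcas1*, were highest in cluster 136. In cluster 138, *Enpp6* and *Gpr17* had 0 UMIs in 61 nuclei and *Bcas1* had 1.

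**Figure D2:**
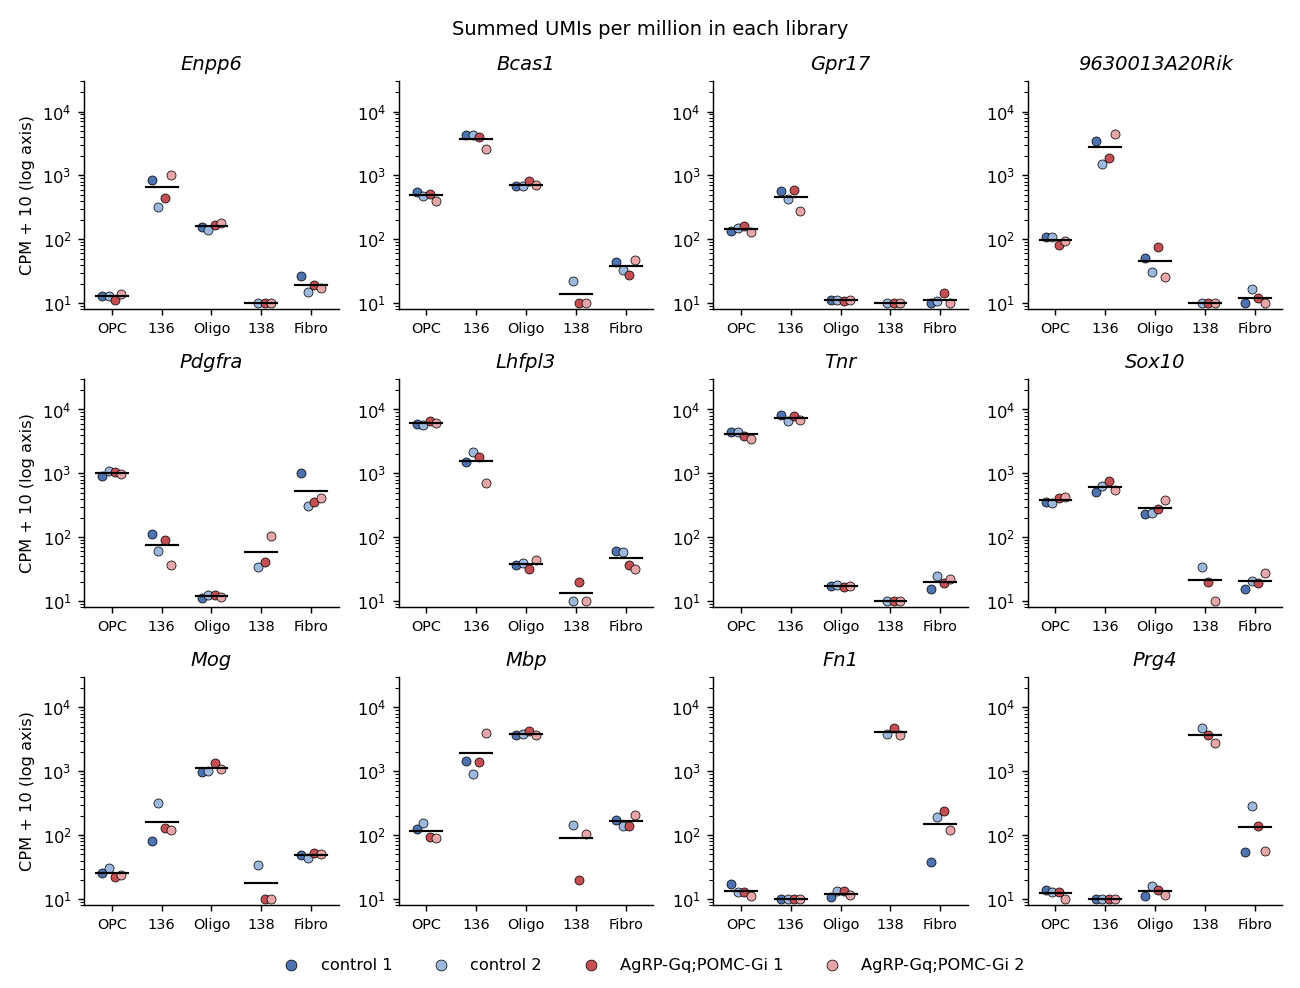
Level of 12 genes (vertical axis, CPM + 10, log scale) in OPC, cluster 136, Oligodendrocytes, cluster 138 and Fibroblasts; each point is 1 library, coloured by group, and each line is the mean of the libraries. *Enpp6*, *Bcas1*, *Gpr17* and *9630013A20Rik* peak in cluster 136, whereas *Fn1* and *Prg4* peak in cluster 138.

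The 3 markers are members of a list of 17 genes of committed and newly formed oligodendrocytes, all of which were detected, which here means UMIs in 5% or more of the nuclei of cluster 136 (one, *Tmem2*, is listed under its newer symbol *Cemip2*). The mean of every one of the 17 was above both OPC and Oligodendrocytes, and 13 were above both annotations in each of the 4 libraries. Over the 8685 genes detected at that level, 635 (7.31%) were above both in each library, 341 (3.93%) were below both, and 2887 (33.2%) had a mean between the other 2 annotations. The list summed to 16169 ± 2189 CPM in cluster 136, 2374 ± 222 in OPC and 1345 ± 77.5 in Oligodendrocytes. The median of its log2 ratios over the higher of the other annotations was 2.89, where that of all genes was -0.11. The list was chosen with earlier results of these data known and the clusters were built on expression, so these counts carry no test.

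Among the signalling members, *Fyn*, a kinase of the Src family needed for oligodendrocyte maturation, was at 3430, 3155, 2990 and 2697 CPM (3068 ± 307) against 263 in OPC and 98.6 in Oligodendrocytes. *Itpr2*, a calcium release channel of the endoplasmic reticulum, was at 1009, 898, 1028 and 1217 CPM (1038 ± 132) against 429 and 17.0. *Bmp4*, a secreted ligand of the bone morphogenetic protein family, was at 202, 180, 147 and 227 CPM (189 ± 34.1) against 0.861 and 0.448. The spread of these 3 genes over the libraries was small beside their distance from the other annotations. *Tcf7l2*, a transcription factor downstream of Wnt signals, varied more, at 461, 872, 961 and 1635 CPM (982 ± 486) against 126 and 72.1. *Tns3*, an adaptor at focal adhesions, was at 1326, 1231, 1388 and 1671 CPM (1404 ± 189) against 275 and 152. *Cnksr3*, a scaffold protein of Ras signalling, was at 375, 205, 280 and 1435 CPM, so that AgRP-Gq;POMC-Gi replicate 2 stood far above the other libraries. *Neu4*, a sialidase, was the member closest to OPC, at 490, 513, 561 and 254 CPM (454 ± 137) against 416 in OPC and 0.765 in Oligodendrocytes, and its last library was below OPC. *Rras2*, *Cemip2* and *Prom1* had 0 UMIs in 1 or 2 of the libraries.

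*9630013A20Rik* (chr14:84458639-84476424, minus strand, an antisense transcript inside *Pcdh17*) was at 3402, 1488, 1869 and 4495 CPM in cluster 136. OPC was at 87.8 ± 12.8 CPM and Oligodendrocytes at 36.0 ± 22.9, and cluster 138 had 0 UMIs. It was found in 48 of the 62 nuclei with 929 UMIs, and its pooled level was 35.8-fold above that of OPC, the next annotation of all those in the table.

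The genes of the OPC itself were lower than in OPC but far above Oligodendrocytes for most members. All 13 genes of the OPC list were detected, 11 had a mean between the 2 annotations, and 2, *Tnr* and *Sox6*, were above both in every library. The list summed to 14735 ± 2607 CPM, against 23151 ± 1144 in OPC and 188 ± 14.6 in Oligodendrocytes. *Pdgfra*, the receptor for platelet-derived growth factor, was at 101, 51.3, 80.1 and 27.2 CPM (64.9 ± 32.3) against 986 ± 71.6 in OPC and 1.93 in Oligodendrocytes. *Cspg4*, the NG2 proteoglycan, was at 216, 180, 93.4 and 9.08 CPM against 303 in OPC, and *Ptprz1*, a receptor phosphatase, was at 822, 769, 1041 and 481 against 2431. *Tnr*, the matrix protein tenascin-R, went the other way, at 8230.3, 6694, 7754 and 6883 CPM (7391 ± 726) against 4076 ± 512 in OPC and 7.18 in Oligodendrocytes. *Sox6*, a transcription factor of precursors, was at 2652, 2154, 1882 and 1616 CPM against 1528 in OPC. The receptor of the precursor was thus nearly gone in these nuclei, while *Tnr* and *Sox6* were above the precursor level.

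Myelin genes were between those of the other annotations. Of 17, 14 were detected, 12 had a mean between OPC and Oligodendrocytes, 0 were above both in each library, and *Mal* was below both. The list summed to 5708, 4309, 5125 and 10116 CPM, against 948 in OPC and 17045 in Oligodendrocytes. *Mbp*, myelin basic protein, was at 1427, 898, 1375 and 3905 CPM against 107 in OPC and 3863 in Oligodendrocytes. AgRP-Gq;POMC-Gi replicate 2 was the highest library and reached the level of Oligodendrocytes. Components of finished myelin were further behind, with *Mog* at 72.1, 308, 120.1 and 109 CPM against 1105 in Oligodendrocytes and *Mobp* at 57.7, 0, 13.3 and 227 against 1566. Genes of mature oligodendrocytes were detected for 9 of 14 members, 0 of them above both annotations, and *Hapln2*, a protein of the node of Ranvier, had 0 UMIs against 559.6 CPM in Oligodendrocytes. *St18*, a zinc finger transcription factor, differed from the rest of that list, at 4094, 2129, 3310 and 4295 CPM against 33.6 in OPC and 4359 in Oligodendrocytes. *St18* was therefore already near the oligodendrocyte level in 3 of the 4 libraries.

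**Figure D3:**
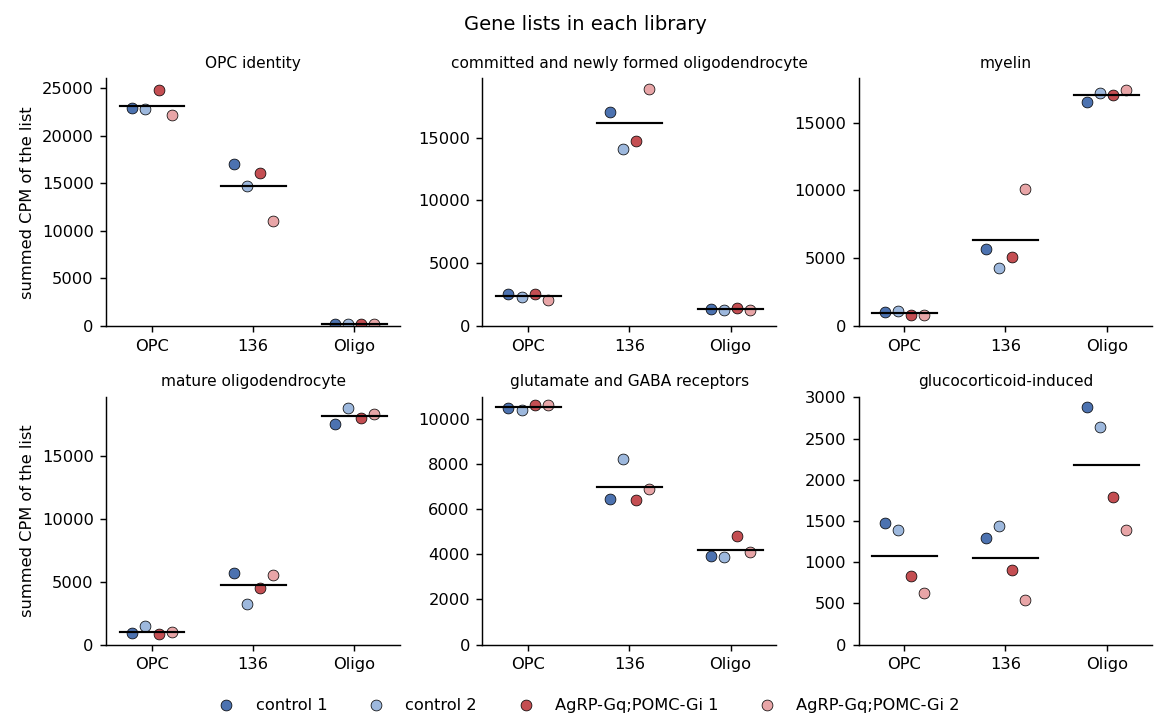
Summed level of 6 gene lists (vertical axes, CPM) in OPC, cluster 136 and Oligodendrocytes; each point is 1 library. The committed and newly formed list is highest in cluster 136 in every library, between 14081 and 18834 CPM, while the OPC and myelin lists lie between the other 2 annotations.

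Lineage transcription factors were detected for 13 of 19 members, of which 6 were above both annotations in every library and 6 had a mean between them. *Sox10*, which acts throughout the lineage, was at 504, 616, 747 and 545 CPM (603 ± 107) against 373 in OPC and 273 in Oligodendrocytes. *Nkx2-2*, a repressor that acts as differentiation starts, was at 164 ± 49.8 CPM against 51.7 and 27.5, and *Sox4*, a factor of immature cells, was at 170 CPM against 48.3 and 1.72. *Myrf*, the activator of myelin genes, was at 159, 25.6, 80.1 and 218 CPM against 7.16 in OPC and 197 in Oligodendrocytes. *Olig1*, a basic helix-loop-helix factor of the lineage, was lower than in OPC, at 151 ± 43.9 CPM against 262. *Sox10*, *Nkx2-2*, *Sox4* and *Myrf* were thus above the OPC level in every library of the cluster, and *Olig1* was not. The *Myrf* level of control replicate 2 rested on a single UMI.

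Of 16 neurotransmitter receptor genes, 13 were detected, 10 had a mean between the other annotations, and the list summed to 6420 to 8207 CPM against 10382 to 10644 in OPC and 3893 to 4800 in Oligodendrocytes. *Gria2*, the AMPA receptor subunit that limits calcium entry, was above both annotations at 2652, 1667, 2176 and 2107 CPM against 1501 in OPC and 69.8 in Oligodendrocytes. *Grm5*, a metabotropic glutamate receptor, was lower than in OPC, at 463 ± 186 CPM against 1870. Cholesterol synthesis genes, whose product myelin needs in bulk, summed to 681 to 808 CPM against 441 to 477 in OPC and 722 to 929 in Oligodendrocytes, with 16 of 21 detected and 1 above both in each library. Of 9 Wnt and Notch genes, 1 was detected, and the list summed to 28.8 to 80.1 CPM against 158 to 197 in OPC. None of the 17 cell cycle genes was detected in 5% of the nuclei, and they summed to 43.2 to 53.4 CPM against 35.8 to 57.8 in OPC, so that no difference in proliferation genes could be seen at this depth.

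Marker lists of neurons, astrocytes and microglia were far below their own cell types in cluster 136. The neuron list summed to 359 to 677 CPM against 10777 in neurons and 747 to 938 in OPC, with 5 of 8 members detected. The astrocyte list summed to 63.6 to 410 CPM against 5414 in astrocytes, with *Gfap* at 0, and the microglia list to 80.1 to 205 against 9549 in microglia, with *Tmem119* and *Inpp5d* at 0. Fibroblast markers summed to 0 to 25.6 CPM with *Col1a1*, *Col1a2* and *Pdgfrb* at 0, and Schwann cell markers to 0 to 28.8 with *Prx*, *Egr2* and *Pmp2* at 0. The vascular list was above both neighbours in every library, at 57.7, 308, 66.7 and 54.5 CPM against 13.4 to 51.6 in OPC and 12.2 to 14.5 in Oligodendrocytes, and the value of control replicate 2 came from *Flt1*, a receptor of endothelial cells. The part of vascular RNA in the other values of cluster 136 was not tested.

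Genes were also named by rank, without a list, from 8861 genes with at least 100 UMIs over cluster 136, OPC and Oligodendrocytes in each library. Of these, 515 were above both annotations in each library of cluster 136. *9630013A20Rik* led them, at 32.1-fold over the higher of the 2 annotations. It was followed by *Parvb*, an adhesion protein bound to integrin-linked kinase, at 23.2-fold (222 ± 131 CPM), and by *Frmd4a*, a scaffold of cell polarity, at 21.5-fold, with libraries at 10551, 7130.2, 7394 and 18680 CPM against 508 in OPC and 147 in Oligodendrocytes. The non-coding *9530059O14Rik* was 19.4-fold above, *Pik3r3*, a regulatory subunit of phosphoinositide 3-kinase, 15.3-fold, and *Nrg1*, a ligand of ErbB receptors, 11.8-fold. The libraries of *Pik3r3* were at 1095, 385, 601 and 3060 CPM, so that AgRP-Gq;POMC-Gi replicate 2 weighed most in its fold. *Fyn* followed at 11.7-fold, *Pdcd4*, an inhibitor of translation, at 11.1-fold, the membrane skeleton protein *Epb41l2* at 9.67-fold and the chromatin remodeller *Chd3* at 9.47-fold.

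In the other direction, 631 genes were below both annotations in each library. The ubiquitin ligase *March1* was 7.82-fold below the lower of the other annotations, at 303, 205, 214 and 54.5 CPM against 1517 in OPC and 1692 in Oligodendrocytes, and the adhesion gene *Tenm2* was 6.21-fold below, at 108 CPM against 668 and 856. The other named genes had too few UMIs for a fold. *Rasa3*, an inhibitor of Ras signalling, had 2 UMIs in cluster 136 against 101 CPM in OPC and 129 in Oligodendrocytes. The adhesion gene *Cdh8* had 3 UMIs against 172 and 124 CPM, the growth factor *Fgf1* 2 against 91.5 and 104, the glutamate transporter *Slc1a3* 1 against 89.3 and 109, and *Pstpip2* 2 against 89.1 and 649.9. The remaining 3 of the 10 were non-coding genes.

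With cluster 138 included, the same ranking over all 123 nuclei was led by *Etl4* at 34.0-fold, which was at 70.6 ± 60.1 CPM in cluster 136 and at 1253, 2045 and 5307 CPM in the 3 libraries of cluster 138. *Tgfbr3*, a co-receptor for transforming growth factor beta (10.6-fold), and *Nxn*, a redox protein (10.3-fold), also ranked there, and *Tgfbr3* had 2 UMIs in cluster 136 against 114 in cluster 138. The genes *9630013A20Rik*, *Frmd4a*, *Parvb*, *9530059O14Rik*, *Pik3r3*, *Pdcd4* and *Fyn* were named in both rankings. A list of leading genes for the annotation as a whole therefore mixes genes of 1 cluster with genes of the other.

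Some single nuclei of cluster 136 held precursor and myelin genes together. For this count each nucleus was thinned at random to 800 UMIs, the minimum of the study's filter, so that depth did not enter. The median nucleus of cluster 136 had 13 UMIs of the OPC list, 10 of the committed list and 3.5 of the myelin list. The medians were 18, 2 and 0 in OPC, and 0, 1 and 13 in Oligodendrocytes. At least 5 UMIs of both the OPC and the myelin list were present in 20 of 62 nuclei (32.3%) of cluster 136, in 14 of 784 (1.79%) of OPC and in 0 of 16816 of Oligodendrocytes. A further 35 nuclei of cluster 136 reached 5 UMIs of the OPC list alone, 6 of the myelin list alone and 1 of neither. Within the cluster the counts of the 2 lists ran in opposite directions (Pearson's r = -0.43, Spearman's rho = -0.30 across 62 nuclei of 4 libraries, a description). By library, the median of the OPC list was 14.5, 12, 13 and 9 UMIs and that of the myelin list 3, 3, 2 and 6, so the nuclei of AgRP-Gq;POMC-Gi replicate 2 lay furthest toward the myelin side. The median of 3892 UMIs per nucleus in cluster 136 stood close to the 3728 of OPC and above the 2460.0 of Oligodendrocytes. In AgRP-Gq;POMC-Gi replicate 2 it was 5868 against 3736 in OPC, and across the nuclei of the cluster total UMIs rose with the thinned myelin count (Spearman's rho = 0.38, a description). Whether pairs of nuclei under a single barcode have a part in the joint counts was not tested.

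**Figure D4:**
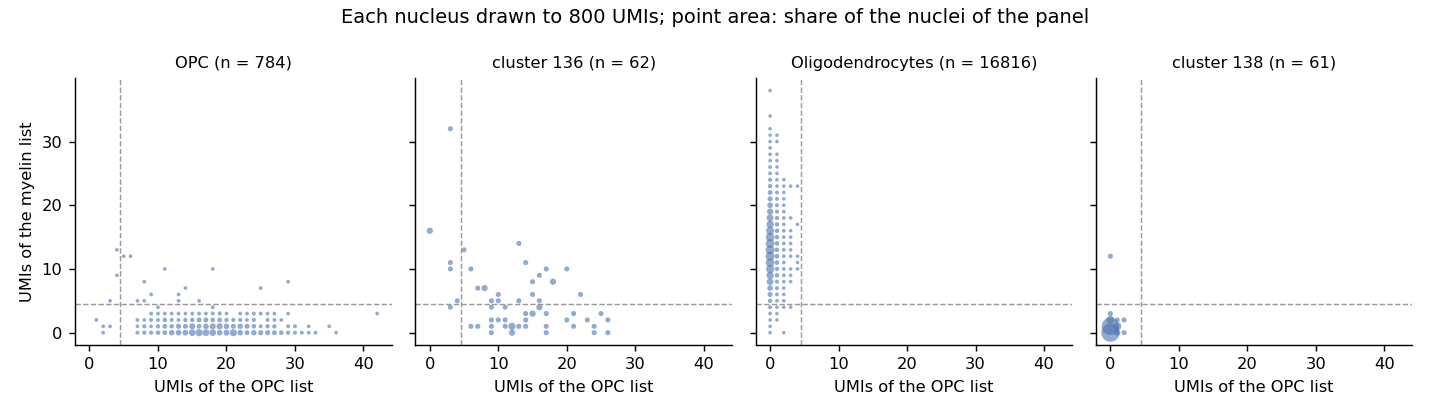
UMIs of the myelin list against UMIs of the OPC list per nucleus, each nucleus thinned to 800 UMIs, for OPC, cluster 136, Oligodendrocytes and cluster 138; the area of a point is the share of the panel's nuclei at that position and the dashed lines mark off nuclei with at least 5 UMIs. Past both lines lie 20 of 62 nuclei of cluster 136, 14 of 784 of OPC and none of the other 2 panels.

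At 800 UMIs, *Enpp6* was found in 30.6% of nuclei in cluster 136 (exact 95% interval 19.6 to 43.7; intervals and limits cover counting error only), against 0.383% in OPC, 8.10% in Oligodendrocytes, 0.215% in neurons and 0.929% in microglia, 2 types that should lack it. Without thinning the share was 51.6%. *Bcas1* was found in 87.1% (76.1 to 94.3) against 30.0% in OPC, 41.9% in Oligodendrocytes, 0.686% in neurons and 2.17% in microglia, and in all 62 nuclei (100%) without thinning. *Gpr17* was found in 30.6%, or 72.6% without thinning, against 9.57% in OPC, 0.137% in Oligodendrocytes, 0.0558% in neurons and 0.103% in microglia. All 3 shares in cluster 136 were therefore above the background in neurons and microglia. In cluster 138 each of the 3 was found in 0 of 61 nuclei at this depth, which allows up to 4.92% of nuclei with a UMI and sets no limit on nuclei that express the gene below that depth.

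The nuclei of cluster 136 that had *Enpp6* and those that had *Gpr17* differed in their other genes. At 1500 UMIs, 14 nuclei (22.6%) had UMIs of both *Enpp6* and *Gpr17*, with a median of 25.5 UMIs of the OPC list and 10 of the myelin list. The 20 nuclei with *Gpr17* alone had medians of 26.5 and 2.5, and the 11 with *Enpp6* alone had medians of 11 and 15. The 17 nuclei with neither had medians of 21 and 3. The nuclei with *Gpr17* alone thus had more OPC and fewer myelin UMIs than those with *Enpp6* alone. The libraries did not contribute evenly, since 7 of the 11 nuclei with *Enpp6* alone came from AgRP-Gq;POMC-Gi replicate 2 and 10 of the 20 with *Gpr17* alone from replicate 1 of that group, and the part of the libraries in this contrast was not tested.

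Cluster 138 went against the label by the markers of the annotation and by most lineage genes, but not by all of them. *Enpp6* and *Gpr17* had 0 UMIs and *Bcas1* had 1. Of the 13 OPC genes 3 were detected, with *Tnr*, *Xylt1*, *Cacng4* and *Matn4* at 0, and the list summed to 220 CPM against 23151 in OPC. The lineage factors *Sox8*, *Nkx2-2*, *Nkx6-2*, *Myrf* and *Zfp488* were at 0, *Sox10* had 3 UMIs, and *Mbp* had 13 of the 191220 UMIs of the cluster.

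Of the 17 committed and newly formed genes, 7 were at 0 in cluster 138 (*Enpp6*, *Gpr17*, *Neu4*, *9630013A20Rik*, *Kif19a*, *Mycl* and *Prom1*), 7 were detected, and the list summed to 1883 CPM, against 2374 in OPC and 16169 in cluster 136. *Bmp4*, at 243, 193 and 186 CPM in control replicate 2 and in AgRP-Gq;POMC-Gi replicates 1 and 2, overlapped with the libraries of cluster 136. *Itpr2*, at 791, 1068 and 279 CPM, was found in 49 of the 61 nuclei, and *Tcf7l2* was found in 35, *Lims2* in 21 and *Fyn* in 19. Of the myelin and mature genes, *Cldn11*, a tight junction protein, was found in 47 nuclei (586 CPM), *Dock5*, an activator of Rac, in 52 (811 CPM), and *Ptgds*, a prostaglandin synthase, was at 8698, 3480.1 and 1304 CPM. None of these was among the 10 genes that stood furthest above the other annotations in cluster 138, which is called by its number here. Fibroblasts summed to 1072 CPM for the committed list, 1147 for the myelin list and 14544 for the mature list. Cluster 138 was at 1883, 1140 and 7494 CPM, so its myelin and mature sums were not above those of Fibroblasts.

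The genes that stood furthest above every other annotation in cluster 138 were *Cubn* and *Gm12153*, followed by *Prg4*. *Prg4*, the joint lubricant proteoglycan, was at 4732, 3694 and 2793 CPM in control replicate 2 and in AgRP-Gq;POMC-Gi replicates 1 and 2, with a UMI in 59 of the 61 nuclei (96.7%), and its pooled level was 22.6-fold above Fibroblasts, the next annotation. *Fn1*, fibronectin, was at 3868, 4671 and 3631 CPM against 139 ± 88.4 in Fibroblasts. *Trpm3*, a cation channel, was at 16118, 18408 and 26443 CPM, a pooled level of 17875 against 11371 in Fibroblasts. *Cubn*, an endocytic receptor, was at 462, 631 and 559 CPM, 65.4-fold above choroid plexus. *Cdh1*, epithelial cadherin, was 13.3-fold above the next annotation, the receptor *Adra1b* 17.8-fold, the vitamin A transporter *Stra6* 11.8-fold and the ectonucleotidase *Nt5e* 9.43-fold. *Prg4*, *Fn1*, *Trpm3* and *Cubn* were thus high in each of the 3 libraries, including the one that gave 2 nuclei.

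Over 15131 genes, the pooled log2 profile of cluster 138 correlated with Fibroblasts at r = 0.855 and with Mural cells at 0.736, while Oligodendrocytes at 0.611 and OPC at 0.601 came in the places 10 and 11 of 13 annotations. That of cluster 136 correlated with OPC at 0.863 and with Oligodendrocytes at 0.772. These are correlations across genes, which are not independent replicates. Standard fibroblast markers were low all the same: *Dcn*, a collagen-binding proteoglycan, had 12 UMIs (62.8 CPM) against 1071 CPM in Fibroblasts, *Lum* had 0, *Col1a1* 2 and *Col1a2* 3, and the list summed to 99.4 CPM against 2100 in Fibroblasts. Cluster 93, a Fibroblasts cluster of 105 nuclei at r = 0.851, was spread over the libraries in a like way, with 3, 65, 34 and 3 nuclei, and shared *Bnc2*, a zinc finger protein, at 3021 CPM against 2530, 2727 and 2142 in the libraries of cluster 138. The transporter *Slc47a1* separated them, at 3276 CPM in cluster 93 and 26.1 in cluster 138.

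The 2 clusters under the annotation were far apart. Of 1216 genes with at least 50 UMIs in the higher cluster, 584 (48.0%) differed at least 4-fold, 349 higher in cluster 136 and 235 in cluster 138. *Tnr* had 2171 UMIs in cluster 136 and 0 in cluster 138, at least 472-fold higher with the floor of 3 UMIs for the cluster. *Bcas1* had 1041 and 1 UMIs. The cell-surface genes *Csmd1* (1308 and 2 UMIs), *Nlgn1* (915 and 2 UMIs), *Lsamp* (160-fold), *Ncam2* (128-fold) and *Nfasc* (125-fold) and the membrane protein *Nkain2* (210-fold) were also higher in cluster 136. In the other direction *Trpm3* had 10 and 3418 UMIs, *Fn1* was at least 417-fold higher and *Bnc2* at least 255-fold. A pooled level for the annotation is therefore an average of unlike nuclei. Their mixture ranged from 16 and 0 nuclei of clusters 136 and 138 in control replicate 1 to 9 and 27 in control replicate 2. Values over both clusters mix them in a different ratio in each library, so results are also given for cluster 136 alone.

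The share of the annotation did not separate the groups. It was 0.261 ± 0.137% of nuclei in controls and 0.363 ± 0.243% in AgRP-Gq;POMC-Gi, a difference of 0.101 percentage points (two-sided exact permutation test over libraries, p = 0.667; with 2 against 2 libraries the smallest p is 0.333). The difference was -0.0706 without AgRP-Gq;POMC-Gi replicate 1. Cluster 136 was at 0.127 ± 0.0530% in controls and 0.188 ± 0.0248% in AgRP-Gq;POMC-Gi (p = 0.333, exact permutation test). As a share of all nuclei of the lineage, cluster 136 was 0.308% and 0.200% in controls and 0.480% and 0.441% in AgRP-Gq;POMC-Gi, so that the groups did not overlap (p = 0.333, exact permutation test, the smallest this design allows). Oligodendrocytes, which make up most of that denominator, were 4981 and 4300 nuclei in controls and 3898 and 3637 in AgRP-Gq;POMC-Gi, and OPC showed the same order, at 3.89% and 3.75% against 5.14% and 5.16% of the lineage.

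Expression was compared between the groups on UMIs summed per library with edgeR's quasi-likelihood test. Over both clusters, 0 of 8930 genes (0%) had an adjusted p under 0.05, while 120 (1.34%) had an unadjusted p under 0.05, and DESeq2 called 0 genes as well. Both AgRP-Gq;POMC-Gi libraries were above both controls for 1127 genes (12.6%) and below them for 1372 (15.4%). Among the genes with the lowest p, none of which passed, *Gas7* was at 72.1, 24.8, 202 and 538 CPM, *Ddr1*, a collagen receptor, at 43.2, 24.8, 115 and 149, *Ghitm*, a mitochondrial protein, at 101, 74.3, 5.77 and 8.27, and *Chchd10*, another mitochondrial protein, at 130, 82.5, 11.5 and 24.8 CPM.

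In cluster 136 alone, 4 of 8685 genes (0.0461%) passed, all higher in AgRP-Gq;POMC-Gi, with 410 (4.72%) at an unadjusted p under 0.05, and DESeq2 called 0. Both AgRP-Gq;POMC-Gi libraries were above both controls for 1179 genes (13.6%) and below them for 1668 (19.2%). Of the 4, *Synpr* and *Cntnap2* met the detection limit only through AgRP-Gq;POMC-Gi nuclei, 5 and 4 of them with 0 in either control library. Such genes could be tested only where they were high in that group, so their values are given without a p. *Synpr*, a synaptic vesicle protein, had 0, 0, 5 and 55 UMIs, or 0, 0, 66.7 and 499 CPM, and 27 of its 60 UMIs (45.0%) came from 1 nucleus. *Cntnap2*, an adhesion protein of axons, was at 0, 0, 26.7 and 309 CPM, and 33 of its 36 UMIs (91.7%) came from 1 nucleus. Both were thus highest in AgRP-Gq;POMC-Gi replicate 2 and rested on few nuclei. *Gas7*, a regulator of the actin skeleton, was at 72.1, 25.6, 120.1 and 590 CPM, a log2 difference of 2.94 (SE 0.66, adjusted p = 0.0272, edgeR) with UMIs in 11 nuclei. These were 1 of 16 and 1 of 9 control nuclei and 2 of 20 and 7 of 17 AgRP-Gq;POMC-Gi nuclei. *Gas7* too thus met the detection limit mostly through AgRP-Gq;POMC-Gi nuclei, and its p carries that limit. *Pex5l*, an auxiliary subunit of HCN channels, was at 86.5, 154, 307 and 890 CPM, a log2 difference of 2.63 (SE 0.60, adjusted p = 0.0272, edgeR), and 71 of its 133 UMIs (53.4%) came from 1 nucleus. AgRP-Gq;POMC-Gi replicate 2 was by far the highest library for both, and without it the log2 difference was 1.28 for *Gas7* and 1.61 for *Pex5l* (adjusted p = 0.985 for each, edgeR). Without control replicate 1 it was 4.11 (adjusted p = 0.163, edgeR) and 2.35 (adjusted p = 0.741), and without control replicate 2 it was 2.46 (adjusted p = 0.988) and 2.93 (adjusted p = 0.491). Each of these fits leaves 1 group with a single library, whose spread is taken from the other group. With every nucleus thinned to 1500 UMIs, 0 genes passed, with log2 differences of 2.43 and 1.97 (adjusted p = 0.989 for each, edgeR). Both genes were higher in Oligodendrocytes than in OPC, *Gas7* at 133 to 193 CPM against 17.9 to 25.8 and *Pex5l* at 4737 to 5529 against 139 to 165. The part of the stage of the nuclei in each library in these 2 calls was not tested. With 28 calls, the analysis without AgRP-Gq;POMC-Gi replicate 1 gave the most.

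Of the genes with the lowest p that did not pass in cluster 136, *Zbtb16*, a zinc finger transcription factor known to respond to glucocorticoids, was at 649, 385, 133 and 45.4 CPM (log2 difference -2.41, SE 0.58, adjusted p = 0.0583, edgeR), with UMIs in 30 nuclei. *Mybpc1*, a myosin-binding protein, was at 461, 231, 80.1 and 27.2 CPM and *Kcnip1*, a potassium channel subunit, at 101, 385, 26.7 and 18.2. *Tspan9*, a tetraspanin, was at 0, 25.6, 26.7 and 282 CPM, *Cct6a*, a chaperonin subunit, at 245, 231, 0 and 63.6, and *Angpt1*, a vascular ligand, at 86.5, 154, 0 and 9.08. Without TMM factors *Zbtb16* (adjusted p = 0.0102, edgeR), *Mybpc1* (0.0162) and *Kcnip1* (0.0465) passed as lower in AgRP-Gq;POMC-Gi. *Kcnip1* had UMIs in 5 and 5 control nuclei and in 1 and 2 AgRP-Gq;POMC-Gi nuclei, so it met the detection limit mostly through controls. The 6 genes were chosen by their p, so nothing is read from the fact that their groups did not overlap, and in *Tspan9* control replicate 2 stood close to AgRP-Gq;POMC-Gi replicate 1.

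**Figure D5:**
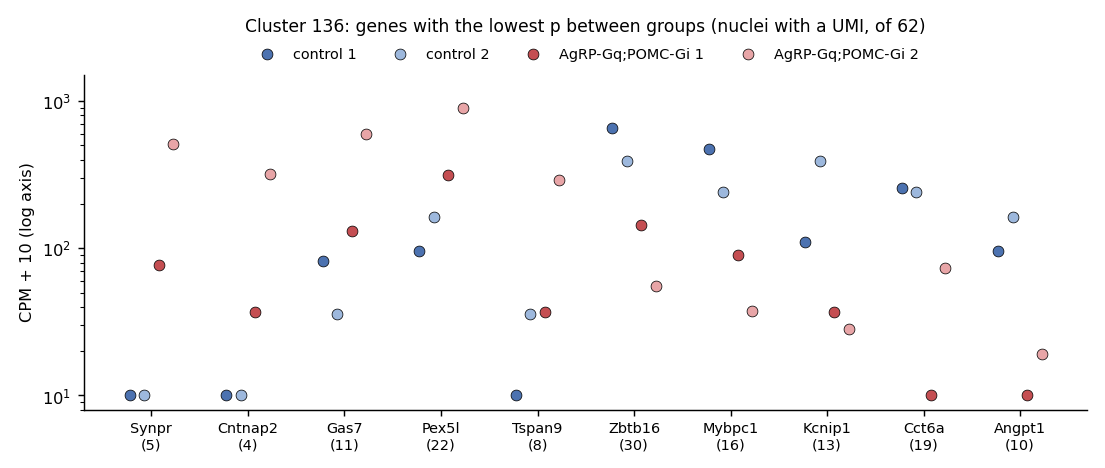
Level in cluster 136 (vertical axis, CPM + 10, log scale) of 10 genes, the 5 with the lowest p in each direction between the groups, 1 point per library, with the number of nuclei that had a UMI in brackets. *Gas7* and *Pex5l* passed the test, as did *Synpr* and *Cntnap2*, which had no UMI in the controls and could be tested only through the group where they were high, and all 4 are highest in AgRP-Gq;POMC-Gi replicate 2.

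The markers themselves did not differ detectably between the groups in cluster 136: the log2 difference was 0.49 (SE 0.51) for *Enpp6*, -0.15 (SE 0.53) for *Bcas1* and -0.03 (SE 0.52) for *Gpr17*, none passing. Of the committed list, 0 of 17 passed, 12 were higher and 5 lower in AgRP-Gq;POMC-Gi, and the median log2 difference was 0.48, against 0.07 for all genes. Of the OPC list 0 of 13 passed, with 2 higher and 11 lower (median -0.25), and of the myelin list 0 of 14, with 11 higher and 3 lower (median 0.80). For the myelin list AgRP-Gq;POMC-Gi replicate 1 lay between the controls at 5125 CPM and replicate 2 above all libraries at 10116. Of the mature oligodendrocyte list 0 of 9 passed (median -0.15), of the transcription factors 0 of 13 (median 0.44), of the cholesterol genes 0 of 16 (median 0.14) and of the receptors 0 of 13 (median 0.19).

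Of 16 genes that glucocorticoids are known to induce, 9 were tested, 0 passed, 8 were lower and 1 was higher in AgRP-Gq;POMC-Gi (median log2 difference -0.83), and for 5 of the lower ones the groups did not overlap, where 19.2% of all genes were lower without overlap. The list summed to 1297, 1436, 908 and 536 CPM in cluster 136, to 1472, 1389, 826 and 625 in OPC and to 2888, 2642, 1785 and 1386 in Oligodendrocytes, the same order of groups in each. In cluster 136 the order depended on *Zbtb16*. Without it the other 15 members summed to 649, 1052, 774 and 490 CPM, and the groups overlapped, whereas in OPC (926, 905, 656 and 503) and Oligodendrocytes (1949, 1918, 1394 and 1070) they did not. The co-chaperone *Fkbp5* was at 144, 103, 66.7 and 27.2 CPM, while the kinase *Sgk1* overlapped between the groups at 173, 282, 214 and 145. *Klf9*, a Krüppel-like factor, was the member that was higher, at 57.7, 76.9, 214 and 199.8 CPM. Of the 10 immediate early genes of the study, which mark recent activity in neurons, 3 were detected in 5% of the nuclei and 0 passed. *Homer1* was at 72.1, 51.3, 66.7 and 45.4 CPM, *Nr4a1* at 43.2, 25.6, 13.3 and 9.08, and *Jun* at 28.8, 0, 13.3 and 54.5. *Fos* had 2 UMIs in the cluster, so a change in it was not detectable at this depth.

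Whether the group difference in these nuclei departed from that in OPC or Oligodendrocytes was tested as an interaction. Over both clusters 0 genes passed in either test, with 387 against OPC and 354 against Oligodendrocytes at an unadjusted p under 0.05. For cluster 136 alone 0 genes passed against OPC (605 unadjusted) and 1 against Oligodendrocytes (595 unadjusted). The gene was *Cnksr3*, at 375, 205, 280 and 1435 CPM in cluster 136, 100.2, 94.7, 54.0 and 60.0 in Oligodendrocytes and 67.1, 55.1, 33.1 and 29.9 in OPC. Its group difference was 2.44 higher on the log2 scale than in Oligodendrocytes (SE 0.44, adjusted p = 0.0135, edgeR) and 2.68 higher than in OPC (adjusted p = 0.209, edgeR). In cluster 136 by itself the log2 difference was 1.76 (SE 0.54, adjusted p = 0.398, edgeR), and AgRP-Gq;POMC-Gi replicate 1 lay between the controls. *Frmd4a* did not pass at full depth against OPC (log2 difference 0.87, SE 0.44, adjusted p = 0.735, edgeR) or Oligodendrocytes (0.58, SE 0.44, adjusted p = 0.886, edgeR). With the nuclei of cluster 136 thinned to 1500 UMIs it passed against OPC in 5 of 5 draws (log2 difference 1.24 to 1.44, adjusted p 3.4e-05 to 0.00144, edgeR) and against Oligodendrocytes in 3 of 5 (0.91 to 1.12, adjusted p 0.0105 to 0.130, edgeR). For *Frmd4a* too, AgRP-Gq;POMC-Gi replicate 1 lay between the controls and replicate 2 above them. The draws reuse the same nuclei and libraries, and OPC and Oligodendrocytes stayed at full depth. They are therefore not repeated evidence, and nothing is read from the passes.

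*Xist*, the RNA of the inactive X chromosome, set AgRP-Gq;POMC-Gi replicate 2 apart from the other libraries, at 0 CPM in cluster 136 against 256 to 1508 in the others and at 37.0 CPM in Oligodendrocytes against 559 to 1119. The same library held the highest values of *Synpr*, *Cntnap2*, *Gas7*, *Pex5l*, *Cnksr3* and the myelin list. The mice were of both sexes, and the part of sex, or of anything else that sets that library apart, in these values was not tested.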

How the data were processed

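Nuclei were sorted by DRAQ5 staining and sequenced with a 10x Genomics 3′ kit. The authors counted reads with Cell Ranger (7.0.0) on GRCm38 and, with Seurat (4.3.0), kept nuclei with at least 800 UMIs, ran doublet detection, and clustered on an scVI embedding. The deposited matrices hold raw UMI counts per gene and nucleus, and the deposited cell table gives the percent of mitochondrial UMIs, the cluster and the annotation of each nucleus. *Gpr17* and *Lims2*, *Bcas1* and *Bcas1os2*, and *9630013A20Rik* and *Pcdh17* overlap on opposite strands, and *Frmd4a* overlaps transcripts on either strand. Whether counting used strand is not given in the sources used here, and whether these genes share reads was not tested.

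Counts were summed per library and cluster and divided by their total for CPM. Genes were tested where at least 5% of the nuclei had a UMI, with edgeR (4.0.16, quasi-likelihood, TMM, Benjamini-Hochberg over all genes tested) in R (4.3.3). Interactions used all libraries of both annotations. Shares of nuclei were compared by exact permutation. Python (3.11.15), numpy (2.4.6), pandas (2.3.3) and scipy (1.17.1) did the rest. The fits were tested on simulated data with 200 changed genes. DESeq2 (1.42.0), no TMM, other filters, thinning to 1500 UMIs, a replicate block and each library left out were alternatives. Of these, the analyses of single clusters, the crossed replicate block and the thinning of summed counts, with the sum of the glucocorticoid list without *Zbtb16*, were chosen after seeing the data.

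The members and the 17 gene lists were chosen with earlier results of these data known. Genes were named as the 3 markers, as members of the lists with many UMIs, as the 10 with the highest and the 10 with the lowest ratio over both other annotations or between the clusters, as those with an adjusted p under 0.05 or else the 5 each way with the lowest p, and as the immediate early genes detected. Genes of a list named beyond this were chosen after their values were seen. The labels give replicate numbers, but same-numbered libraries did not deviate together in cluster 136 (r = -0.0353) or over both clusters (r = -0.446), so the numbers were not taken as pairs. The value over both clusters also holds the uneven mixture of the clusters, whose part was not tested. In tissue content same-numbered libraries were alike, with 2 and 6 choroid plexus nuclei in the replicate 1 libraries and 436 and 329 in the replicate 2 libraries. With 2 libraries per group, the correlations above cannot tell whether same-numbered libraries share a batch, so the replicate block was kept as an alternative. Some genes are not reported here.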

Additional observations from a re-analysis of the deposited data

Results flagged for a closer look

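*Cnksr3*, a scaffold protein of Ras signalling and a member of the committed and newly formed list, drew attention because its group difference in cluster 136 differed from that in Oligodendrocytes by a test of the difference itself. The interaction was 2.44 on the log2 scale (SE 0.44, adjusted p = 0.0135, edgeR), with the level higher in 1 of the 2 AgRP-Gq;POMC-Gi libraries than in both controls. Its 213 UMIs came from 18 nuclei of cluster 136, and 50 of them (23.5%) from 1 nucleus. Without TMM the interaction was 2.27 (adjusted p = 0.00473, edgeR). With the nuclei of cluster 136 alone thinned to 1500 UMIs in 5 draws it lay between 2.08 and 2.83, with adjusted p between 0.0105 and 0.130 (edgeR), and passed in 3 of the 5. The draws reuse the same nuclei, so they are not repeated evidence.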

How the results depend on the processing

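The count of genes that differed between the groups over both clusters was 0, and it became 3 with no filter, 1 with a crossed replicate block and 4 in cluster 136 alone. Leaving out 1 library gave 0 to 57, with 57 when control replicate 2 was out and 1 when AgRP-Gq;POMC-Gi replicate 1 was. The replicate block as numbered left it at 0. In cluster 136 the 4 calls became 7 without TMM (4 higher and 3 lower, *Zbtb16*, *Mybpc1* and *Kcnip1*), 0 with DESeq2, 0 with edgeR's own filter, 1 with the replicate block and 0 after thinning to 1500 UMIs, and 1 to 28 with 1 library left out, the lowest when AgRP-Gq;POMC-Gi replicate 2 was out and the highest when replicate 1 was. There edgeR's own filter kept 1342 genes, and of the 4 calls only *Pex5l* was tested again (adjusted p = 0.888, edgeR). The call left by the replicate block was *Synpr*, whose values are given without a p above. *Gas7* and *Pex5l* did not pass with that block (adjusted p = 0.783 and 0.496, edgeR). Without TMM the median log2 difference of all genes was -0.14 in cluster 136, against 0.07 with it. The interaction against Oligodendrocytes, 0 over both clusters, was 1 in cluster 136 and 3 after thinning (0 to 4 over 5 draws of the same nuclei). That against OPC was 2 after thinning (1 to 3 over these 5 draws, *Frmd4a* in each). The difference in the share of nuclei was -0.0706 to 0.273 percentage points with 1 library left out for both clusters, and -0.114 to 0.195 for cluster 138, which was -0.0940 without control replicate 1. The share of all 123 nuclei with *Enpp6* was 15.4% at 800 UMIs, 26.0% unthinned, 30.6% in cluster 136 and 0% in cluster 138. That with *Bcas1* was 43.9%, 87.1% in cluster 136 and 0% in cluster 138. That with *Gpr17* was 15.4%, 36.6% unthinned, 28.3% at 1500 UMIs, 30.6% in cluster 136 and 0% in cluster 138. The causes of these changes were not tested. None of the 10 genes of lowest p in either set reversed, but they were chosen by their p, so nothing is read from this. The group differences of the other named genes were not compared across the alternatives. The 62 nuclei and the 9 in control replicate 2 limit what can be seen.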

Other observations

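*Frmd4a*, at chr2:4017717-4614043 on the plus strand of GRCm38, holds further transcripts that set cluster 136 apart. *Gm36988*, within it on the same strand, was 20.1-fold above the next annotation, and *Gm13187*, on the opposite strand, was 18.0-fold above it, while *Frmd4a* itself was 8.61-fold above it. *Bcas1os2*, which lies inside *Bcas1* on the opposite strand, was at 2508, 2360, 1909 and 2080 CPM in cluster 136 against 228 ± 33.8 in OPC and 340.4 ± 10.0 in Oligodendrocytes. How strand was counted is not given in the sources used here, and whether these transcripts share reads with their host genes was not tested. Of 912 genes with at least 50 UMIs in cluster 136, 208 had a pooled level above that of every annotation in the table.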
